A study of Mus musculus with 16 samples.

Results

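The Rab, Arf and Arl small GTPases of the mouse medial prefrontal cortex (mPFC) were examined after knockdown of the histone demethylase gene Kdm7a and after morphine withdrawal. Members were the annotated genes whose symbol is Rab followed by a number and at most 1 letter, Arf1 to Arf6, or Arl followed by a number and at most 1 letter. The rule uses no measured value, and 1 Rab symbol is not reported here. The rule found 82 of the 26625 features in the count table, made up of 58 Rab, 6 Arf and 18 Arl genes. Of these, 75 had enough reads to be tested, namely 52 Rab, all 6 Arf and 17 Arl genes. The other 7 were Arl9, Rab17, Rab19, Rab25, Rab37, Rab38 and Rab44. They were counted at 98 reads (Rab37) or fewer over all 16 libraries.

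Rab, Arf and Arl proteins are molecular switches that sit on membranes when they hold GTP and return to the cytosol when they hold GDP. Exchange factors switch them on, GTPase activators switch them off, and the active form recruits effectors that bud, move, tether or fuse vesicles, so that each organelle carries its own set. In neurons, Rab3 and Rab27 proteins act in the exocytosis of synaptic and dense-core vesicles, Rab5 and Rab4 proteins in the endosomal cycling of receptors, and Rab7, Arl8 and the Rab32 group on late endosomes and lysosomes. Arf proteins recruit vesicle coats at the Golgi apparatus, and Arl proteins are a diverse group with roles at the Golgi, lysosome, cilium and microtubules.

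The samples were mPFC tissue of male C57BL/6 mice aged 8 to 10 weeks that went through a conditioned place preference task, in which a drug is paired with 1 side of a box. Every mouse had received an adeno-associated virus in the mPFC, and every sample was taken on day 7 of withdrawal. A control virus was given to the 3 Ctrl + Saline and 4 Ctrl + Morphine mice. The other mice, 5 of them in Kdm7a-shRNA + Saline and 4 in Kdm7a-shRNA + Morphine, carried a virus that makes a short hairpin RNA against Kdm7a from the U6 promoter and EGFP from the CMV promoter. The control virus is labelled shNC. For its fiber photometry the paper names a control vector that also holds an NC hairpin behind U6 and EGFP behind CMV. Neither promoter restricts the virus to neurons. The morphine groups were given 10 mg/kg morphine and the saline groups saline. Full-length cDNA was sequenced on the Nanopore platform. The labels number the samples without stating that each is 1 mouse; they are called mice here, and the p-values given measure the spread between these samples.

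Libraries held 6596991 to 12418112 counted reads, of which 0.473% to 0.723% fell on the 82 members. Kdm7a was counted at 6.19 to 9.78 CPM (reads as a share of the library, scaled by edgeR's TMM factors) in the 7 Ctrl mice and at 3.01 to 6.28 CPM in the 9 Kdm7a-shRNA mice. The groups did not overlap under saline (log2 fold change -0.76, SE 0.204, adjusted p = 0.0153, edgeR quasi-likelihood test), while under morphine they overlapped and the difference missed the threshold (-0.67, SE 0.206, adjusted p = 0.0506). Markers of neurons, astrocytes, oligodendrocytes, their precursors, microglia and vascular cells were all present. In bulk tissue, fewer cells of a type and less RNA per cell cannot be told apart. Kdm7a-shRNA + Morphine replicate 3 stood apart from its group, with 5890 CPM summed over 10 microglia markers against 1312 to 2407 CPM in the other 3 mice. It also had the lowest Kdm7a (3.01 CPM) and the deepest library (12418112 reads) of all 16. Results under morphine are also given without it where it ends a call or moves a value by more than 1.5 times, for called members and some others with large changes.

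The sequences around the starts of 4 members are shown because these genes stand for the patterns described below. Arl11 and Rab31 rose together with endosomal relatives, Arl2 had the smallest adjusted p of the family, and Rab5b fell under saline. Each run is 300 bases of RefSeq sequence (GRCm38.p6) across a RefSeq start of the gene, 5′ to 3′ on the gene's strand. The gene start in the annotation used below for positions may differ, and for Arl2 it lies upstream of the window. The windows are chr14:61309503-61309802 (plus strand), chr17:65772703-65773002 (minus), chr19:6141088-6141387 (minus) and chr10:128696219-128696518 (minus). Capitals mark matches on either strand to any of 5 motifs that were searched, the CRE TGACGTCA, the E-box CACGTG, a PU.1 motif GAGGAAGT, a C/EBP-ATF motif TTGCATCA and the GC box GGGCGG.
Arl11: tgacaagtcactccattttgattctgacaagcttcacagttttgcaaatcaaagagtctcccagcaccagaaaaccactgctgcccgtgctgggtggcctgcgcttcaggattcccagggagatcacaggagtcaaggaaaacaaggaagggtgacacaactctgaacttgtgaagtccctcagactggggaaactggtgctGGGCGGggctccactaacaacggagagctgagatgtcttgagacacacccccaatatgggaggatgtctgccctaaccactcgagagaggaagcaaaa
Rab31: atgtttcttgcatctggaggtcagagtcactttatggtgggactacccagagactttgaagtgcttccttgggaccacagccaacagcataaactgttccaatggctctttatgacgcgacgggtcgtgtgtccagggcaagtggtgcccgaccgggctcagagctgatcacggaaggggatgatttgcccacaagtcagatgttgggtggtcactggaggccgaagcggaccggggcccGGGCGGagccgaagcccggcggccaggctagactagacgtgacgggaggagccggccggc
Arl2: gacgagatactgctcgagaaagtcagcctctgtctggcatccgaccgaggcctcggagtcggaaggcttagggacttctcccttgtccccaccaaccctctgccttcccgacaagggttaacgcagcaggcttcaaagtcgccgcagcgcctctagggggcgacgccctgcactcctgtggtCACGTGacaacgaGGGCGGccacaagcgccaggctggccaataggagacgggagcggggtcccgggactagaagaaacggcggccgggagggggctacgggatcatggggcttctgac
Rab5b: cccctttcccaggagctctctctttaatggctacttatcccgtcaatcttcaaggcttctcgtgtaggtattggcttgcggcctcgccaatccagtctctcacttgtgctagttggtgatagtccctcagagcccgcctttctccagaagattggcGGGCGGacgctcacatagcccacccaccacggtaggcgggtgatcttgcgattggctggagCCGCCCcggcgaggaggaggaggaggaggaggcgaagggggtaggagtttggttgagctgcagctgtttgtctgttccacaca
The Arl2 window held an E-box and a GC box, and the other 3 windows held GC boxes alone. The Arl11 window, with 5 CpG dinucleotides, differed in base composition from those of Arl2 (24), Rab31 (19) and Rab5b (15). Of the 82 members, 68 had an entry, with 85 promoter windows, of which 74.1% held a GC box, 11.8% an E-box, 4.71% a CRE, 3.53% the PU.1 motif and 0 the C/EBP-ATF motif. Among all 32851 windows of the table the shares were 35.7%, 7.15%, 1.79%, 3.20% and 0.895%, and the median window held 7 CpG against 25 in the members. Rab7b, Arl5c, Rab44, Arf6, Rab2a, Rab27b, Rab18, Rab37, Rab36, Rab30, Rab4a, Arl8b, Rab26 and Rab38 had no entry in the table used. These letters describe the sequence and were not tested against the expression values.

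A minority of the family moved with the knockdown, and most of the members that rose belong to the endosomal and lysosomal part of the pathway. That part is large, with 13 of the 75 tested members in early and recycling endosomes and 16 in late endosomes and lysosomes. A gene was called when its adjusted p was under 0.05 over all 18826 features tested with a change of 1.5 times or more in edgeR's quasi-likelihood fit. An unadjusted p under 0.05 in that fit was found for 4805 of these features under morphine and 6536 under saline. Counts of members or listed genes at that level stand beside these. Under morphine, 5 members were higher in Kdm7a-shRNA than in Ctrl mice (Arl2, Arl11, Rab31, Rab7b and Rab32) and 2 were lower (Arl5c and Rab9b), which is 6.67% and 2.67% of the 75 tested. Over all features the shares were 2.86% higher and 4.83% lower, and over annotated genes alone 3.37% and 1.27%. Under saline, 8 were higher (Arl2, Rab4b, Rab31, Arl8b, Rab29, Rab7b, Arl11 and Rab20) and 4 lower (Arl5c, Rab5b, Rab26 and Rab3c), or 10.7% and 5.33%, against 7.43% and 9.31% of all features and 9% and 2.98% of annotated genes. Arl2, Arl11, Rab31, Rab7b and Arl5c were called in both comparisons, and are 5 of the 7 and 5 of the 12. The comparisons use different mice but share 1 fit and its estimate of the spread. The share of all features called in both was not counted.

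The median of the members was close to 0. The median log2 fold change of the 75 was -0.0041 under morphine and 0.0037 under saline, beside -0.0045 and 0.0150 for all features, and 37 and 38 members had a value above 0. All Kdm7a-shRNA mice lay above all Ctrl mice for 6 members under morphine and 13 under saline (6.37% and 11.1% of all features), and below them for 4 and 7 members (7.51% and 12.7% of all features). In each comparison 1 mouse moved the count of calls by more than 1.5 times. Without Kdm7a-shRNA + Morphine replicate 3 the member calls under morphine went from 7 to 4, and those over all features from 1448 (7.69%) to 568 (3.03%). Without Ctrl + Saline replicate 3 the member calls under saline went from 12 to 6, and those over all features from 3151 (16.7%) to 1424 (7.4%). Scaling by library size alone moved the median of all features to -0.11 under morphine and to -0.12 under saline, and the saline calls then split into 5 higher and 5 lower, as they did with at least 10 counts required in every mouse and with annotated genes alone.

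**Figure D1:**
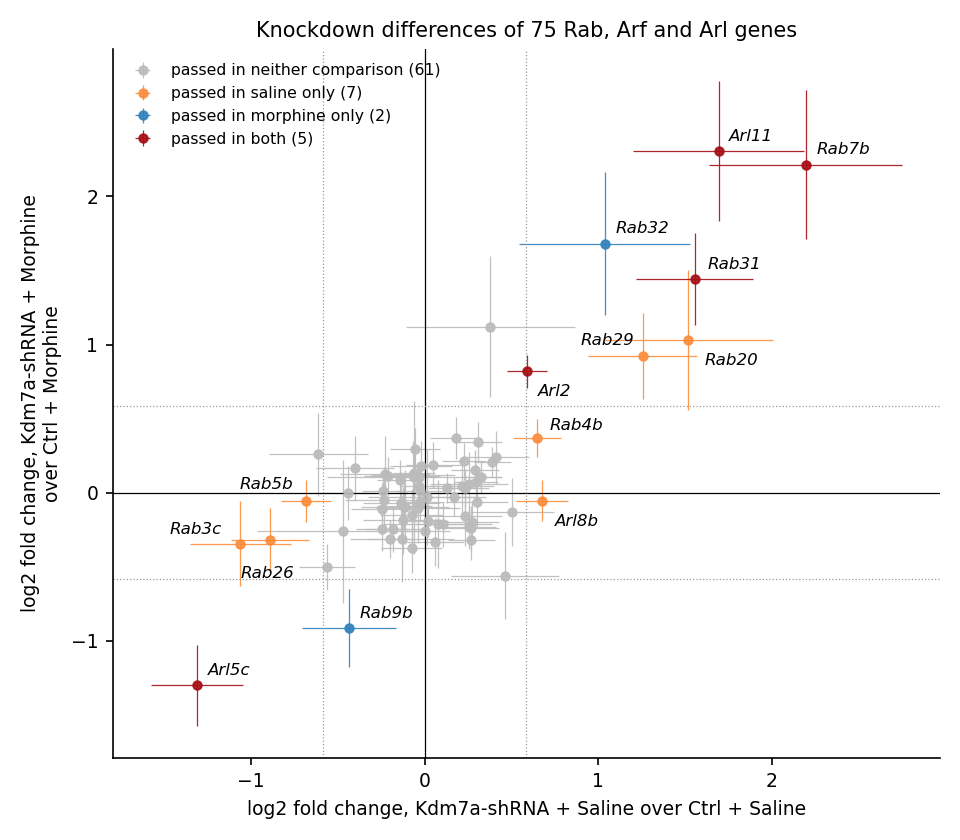
Each point is 1 of 75 tested Rab, Arf and Arl genes, with its log2 fold change of Kdm7a-shRNA over Ctrl under saline on the horizontal axis and under morphine on the vertical axis. Bars are standard errors of the edgeR fit, dotted lines mark the fold change of 1.5, and colours mark the comparison in which a gene was called. Arl11, Rab7b, Rab31 and Arl2 lie at upper right, Arl5c at lower left, and 61 genes were called in neither.

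A set of 6 members that act on endosomes, phagosomes and lysosomes rose with the knockdown, by 2.39 (Rab29) to 4.95 times (Arl11) where they were called. Rab31 works in early endosomes and the trans-Golgi network and is a close relative of Rab22a (ENSMUSG00000056515, chr17:65651729-65772752, minus strand, positions from GRCm38). Rab31 was at 12.03, 8.88 and 9.41 CPM in Ctrl + Saline, 14.5, 10.7, 10.1 and 7.06 in Ctrl + Morphine, 23.3, 33.99, 42.2, 17.5 and 31.2 in Kdm7a-shRNA + Saline and 27.3, 26.1, 46.6 and 14.5 in Kdm7a-shRNA + Morphine. Every Kdm7a-shRNA mouse was above the Ctrl mice of its treatment, although under morphine the lowest one (14.49 CPM) was only just above the highest Ctrl mouse (14.48 CPM). Rab31 rose by 1.44 on the log2 scale under morphine (SE 0.312, adjusted p = 0.0105) and by 1.55 under saline (SE 0.338, adjusted p = 0.00481). The call stood without each mouse in turn, with 1.09, adjusted p = 0.0457 when Kdm7a-shRNA + Morphine replicate 3 was left out.

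Rab7b, a relative of Rab7 that acts between late endosomes and the trans-Golgi network and is best known from macrophages, was among the least counted members (ENSMUSG00000052688, chr1:131688695-131715439, plus strand). Rab7b was at 0.529, 1.27 and 1.06 CPM in Ctrl + Saline, 1.498, 0.427, 1.10 and 0.963 in Ctrl + Morphine, 2.41, 5.30, 5.69, 3.04 and 6.03 in Kdm7a-shRNA + Saline and 1.99, 3.72, 9.97 and 2.42 in Kdm7a-shRNA + Morphine. The groups did not overlap in either comparison, although each library held only 4 to 116 reads of it. The increase was 2.21 under morphine (SE 0.505, adjusted p = 0.0135) and 2.19 under saline (SE 0.556, adjusted p = 0.0113). Rab7b was no longer called under morphine without Kdm7a-shRNA + Morphine replicate 3 (1.44, adjusted p = 0.0703) nor under saline without Ctrl + Saline replicate 3 (2.23, adjusted p = 0.0502).

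Arl11, an Arf-like GTPase studied in macrophages, had the largest increase of the family under morphine (ENSMUSG00000043157, chr14:61309753-61311936, plus strand). Arl11 was at 2.38, 3.81 and 2.12 CPM in Ctrl + Saline, 2.30, 1.81, 2.19 and 1.82 in Ctrl + Morphine, 6.66, 11.98, 12.9, 4.50 and 9.65 in Kdm7a-shRNA + Saline and 8.58, 6.59, 21.3 and 3.09 in Kdm7a-shRNA + Morphine. Again no Kdm7a-shRNA mouse overlapped the Ctrl mice of its treatment, and Kdm7a-shRNA + Morphine replicate 3 was the highest of all. The log2 fold change was 2.31 under morphine (SE 0.470, adjusted p = 0.00791), or 1.57, adjusted p = 0.0346 without that mouse. Under saline it was 1.69 (SE 0.491, adjusted p = 0.0222), and the call was lost without Ctrl + Saline replicate 1 (1.56, adjusted p = 0.0688) or replicate 3 (1.51, adjusted p = 0.105).

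Rab29 and Rab32 belong to 1 subfamily that binds the kinase LRRK2 and works on lysosomes and lysosome-related organelles. Rab29 was at 3.30, 5.37 and 4.11 CPM in Ctrl + Saline, 8.09, 2.88, 4.38 and 3.85 in Ctrl + Morphine, 9.65, 10.6, 11.6, 7.09 and 12.5 in Kdm7a-shRNA + Saline and 8.27, 7.79, 13.4 and 6.84 in Kdm7a-shRNA + Morphine. Rab29 (ENSMUSG00000026433, chr1:131867224-131872887, plus strand) separated the groups under saline and rose by 1.26 (SE 0.314, adjusted p = 0.0104), a call that was lost without Ctrl + Saline replicate 3 (1.20, adjusted p = 0.056). Under morphine 1 Ctrl mouse reached the Kdm7a-shRNA range and the difference just missed the threshold (log2 fold change 0.93, SE 0.291, adjusted p = 0.054). It was called there with RLE size factors (adjusted p = 0.0490), with DESeq2 (adjusted p = 0.0250), without Ctrl + Morphine replicate 1 (adjusted p = 0.0183) and without Kdm7a-shRNA + Morphine replicate 4 (adjusted p = 0.0337), and stood at 0.66, adjusted p = 0.215 without Kdm7a-shRNA + Morphine replicate 3. Rab32 was at 1.59, 2.54 and 1.46 CPM in Ctrl + Saline, 1.70, 0.960, 1.95 and 0.428 in Ctrl + Morphine, 2.30, 4.61, 4.62, 2.70 and 5.23 in Kdm7a-shRNA + Saline and 3.52, 3.36, 7.65 and 1.21 in Kdm7a-shRNA + Morphine. Rab32 (ENSMUSG00000019832, chr10:10545002-10558265, minus strand) was called under morphine (log2 fold change 1.68, SE 0.483, adjusted p = 0.0366) despite overlapping groups. Leaving out any mouse other than Kdm7a-shRNA + Morphine replicate 2 or 4 ended that call, with adjusted p from 0.0511 to 0.197 (log2 fold change 1.10 without Kdm7a-shRNA + Morphine replicate 3), as did testing annotated genes alone (adjusted p = 0.0649) or fitting the compared groups alone (adjusted p = 0.0990). The values under saline did not pass (log2 fold change 1.04, SE 0.492, adjusted p = 0.143).

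Rab20, a GTPase of endosomes and maturing phagosomes, was called under saline (ENSMUSG00000031504, chr8:11453518-11478710, minus strand). Rab20 was at 1.19, 0.878 and 1.19 CPM in Ctrl + Saline, 1.498, 0.320, 1.22 and 0.856 in Ctrl + Morphine, 2.76, 3.34, 4.74, 1.46 and 3.22 in Kdm7a-shRNA + Saline and 1.69, 1.32, 3.78 and 0.939 in Kdm7a-shRNA + Morphine. All Kdm7a-shRNA + Saline mice were above the Ctrl + Saline mice, while the morphine groups overlapped. The difference was 1.52 under saline (SE 0.490, adjusted p = 0.0369) and did not pass under morphine (log2 fold change 1.03, SE 0.474, adjusted p = 0.179, or 0.42, adjusted p = 0.68 without Kdm7a-shRNA + Morphine replicate 3). With 3 to 44 reads per library, the saline call was lost without any of Kdm7a-shRNA + Saline replicates 2, 3 and 5 or any of the 3 Ctrl + Saline mice, with adjusted p from 0.0598 to 0.135, and with annotated genes alone (adjusted p = 0.0638). The exons of Rab20 share 25.6% of their bases with the antisense transcript E230013L22Rik, and reads of the 2 genes may not be fully separated.

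**Figure D2:**
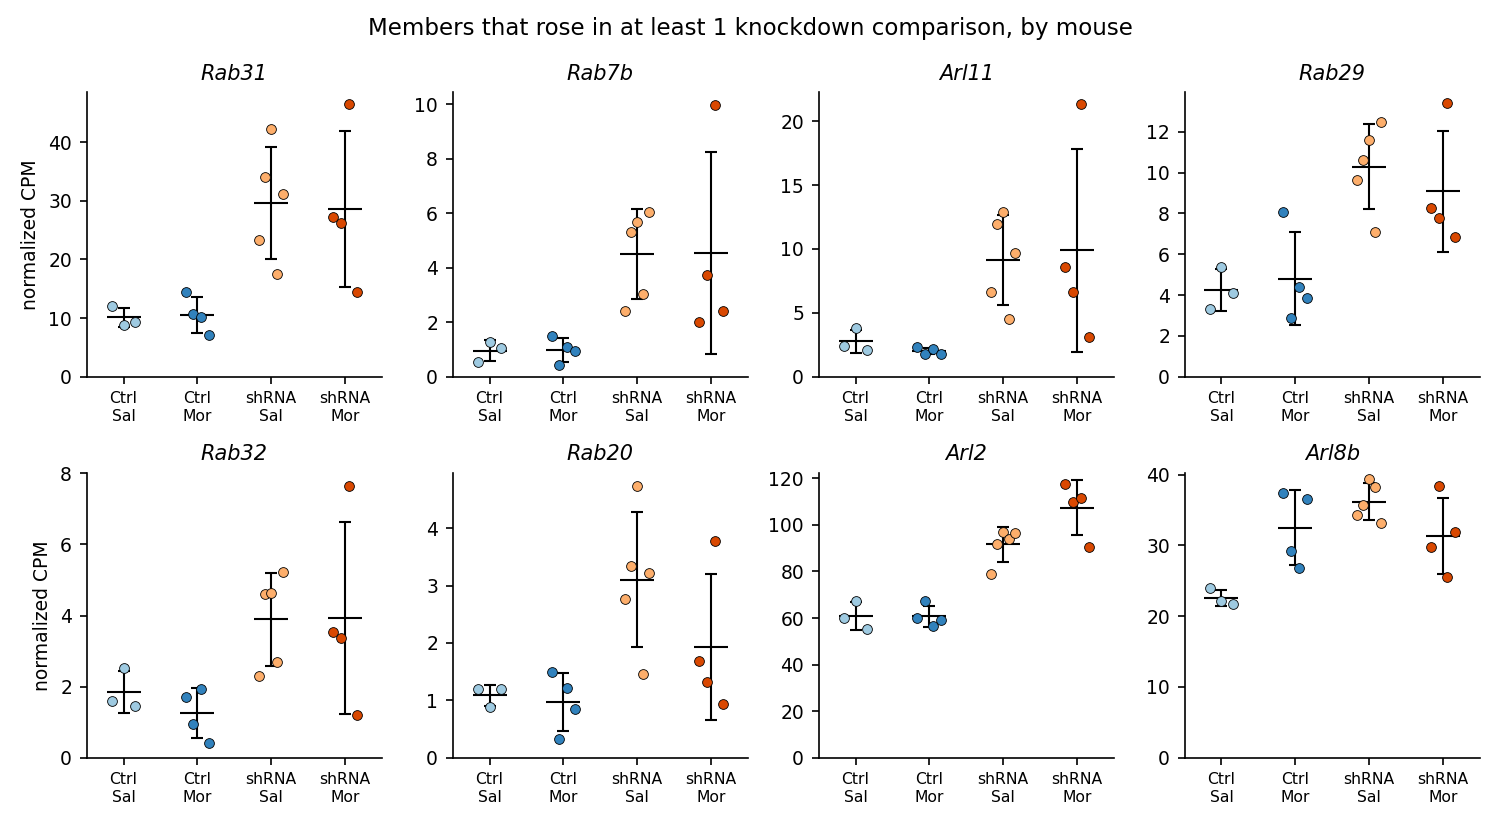
Normalized CPM of Rab31, Rab7b, Arl11, Rab29, Rab32, Rab20, Arl2 and Arl8b by mouse in the 4 groups (Sal, saline; Mor, morphine; shRNA, Kdm7a-shRNA), each point 1 mouse, with the group mean as a line and the SD as bars. The first 6 are spread widely among Kdm7a-shRNA mice, with Kdm7a-shRNA + Morphine replicate 3 the highest of its group in each, while Arl2 lies between 78.8 and 118 CPM in those mice.

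Markers of microglia, the macrophages of the brain, moved with these genes. Of the 10 markers fixed for microglia, all detected in every library with none at 0, 7 rose under morphine (median log2 fold change of the list 1.41) and 9 under saline (1.48), led by Trem2 (2.14 and 2.20) and the complement genes C1qb and C1qc. The exceptions were P2ry12 and Csf1r under morphine and Tmem119 in both comparisons. Their summed level was 1013 to 1446 CPM in Ctrl + Saline, 608 to 1280 in Ctrl + Morphine, 2039 to 6039 in Kdm7a-shRNA + Saline and 1312 to 5890 in Kdm7a-shRNA + Morphine, without overlap between viruses within a treatment. The other lists moved less. Of 12 neuron markers none passed under morphine (edgeR, with 2 at an unadjusted p under 0.05), and under saline Map2 and Gad2 fell and Slc32a1 rose. Gfap and Aldh1l1 of 10 astrocyte markers rose under saline, Opalin of 10 oligodendrocyte markers under morphine, and Olig1 of 6 precursor markers under saline. Pecam1 of 10 vascular markers rose in both comparisons, and Cldn5 and Flt1 under saline.

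Within the 9 Kdm7a-shRNA mice, where the virus does not differ, the called members differed in how they followed the microglia markers. Kdm7a itself ranged from 3.01 to 6.28 CPM in these mice. Relations were computed for the 14 called members with the microglia and the neuron sums within each virus, 56 in all. The mice of both treatments were pooled, and treatment was not taken into account. Values were on the log2 scale with 0.1 CPM added to the members, and p-values came from exact two-sided permutation. The set of 6 members described first above followed the microglia sum closely. They were Rab20 (r = 0.97, p = 5.51e-05, adjusted p = 0.00309, Spearman = 0.98, p = 4.96e-05, adjusted p = 0.00278), Rab29 (r = 0.96), Rab31 (r = 0.93, p = 0.00022, adjusted p = 0.00351, Spearman = 0.88, p = 0.00308, adjusted p = 0.0287), Arl11 (r = 0.92), Rab32 (r = 0.88) and Rab7b (r = 0.83). Other called members of the endosomal and lysosomal classes did not rise with the sum (below). Rab3c (r = -0.94, p = 0.000794, adjusted p = 0.00635, Spearman = -0.87, p = 0.00451, adjusted p = 0.0316) and Rab26 (r = -0.79, adjusted p = 0.0488) ran the opposite way. These 8 had an adjusted p under 0.05 for r, although Rab7b did not for Spearman's coefficient (0.68, adjusted p = 0.141). Without the 2 mice farthest from the median of the sum, r was between 0.84 and 0.98 for that set of 6, -0.93 for Rab3c and -0.74 for Rab26.

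Arl2 (r = 0.12, p = 0.759, exact permutation test), Rab4b (r = -0.12, p = 0.744), Arl8b (r = -0.16, p = 0.685) and Rab9b (r = -0.28, p = 0.451) had values of r closer to 0 that did not pass in the same 9 mice. Without the 2 farthest mice r was -0.0025 for Arl2, -0.52 for Rab4b, -0.64 for Arl8b and -0.05 for Rab9b. Arl5c, which was lower in the knockdown groups, ran upward with the sum (r = 0.64, p = 0.0646, exact permutation test), and Rab5b downward (r = -0.71, p = 0.0360, adjusted p = 0.0840). By role, Rab4b and Rab5b belong to early and recycling endosomes, and Arl8b and Rab9b to late endosomes and lysosomes. Following the sum was thus not a trait of these classes as a whole. With the neuron sum Rab31 ran downward (r = -0.93) and Rab3c upward (r = 0.89), and 6 of 14 relations had an adjusted p under 0.05. In the 7 Ctrl mice 2 of the 14 members, Arl5c and Rab20, followed the microglia sum at an adjusted p under 0.05 (r = 0.94 and 0.93), and r was 0.26 and 0.69 without the 2 farthest mice. Each treatment holds 3 to 5 mice within a virus, too few for a relation of its own. In the pooled mice a difference between treatments can hide or add to a relation. Arl2 had a mean of 91.6 CPM in Kdm7a-shRNA + Saline and 107 CPM in Kdm7a-shRNA + Morphine. The microglia sum had medians of 4221 and 2214 CPM in these groups. A small pooled r therefore does not show that a member does not follow the sum within a treatment. The part of the microglia and neuron markers in the knockdown differences was not tested.

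**Figure D3:**
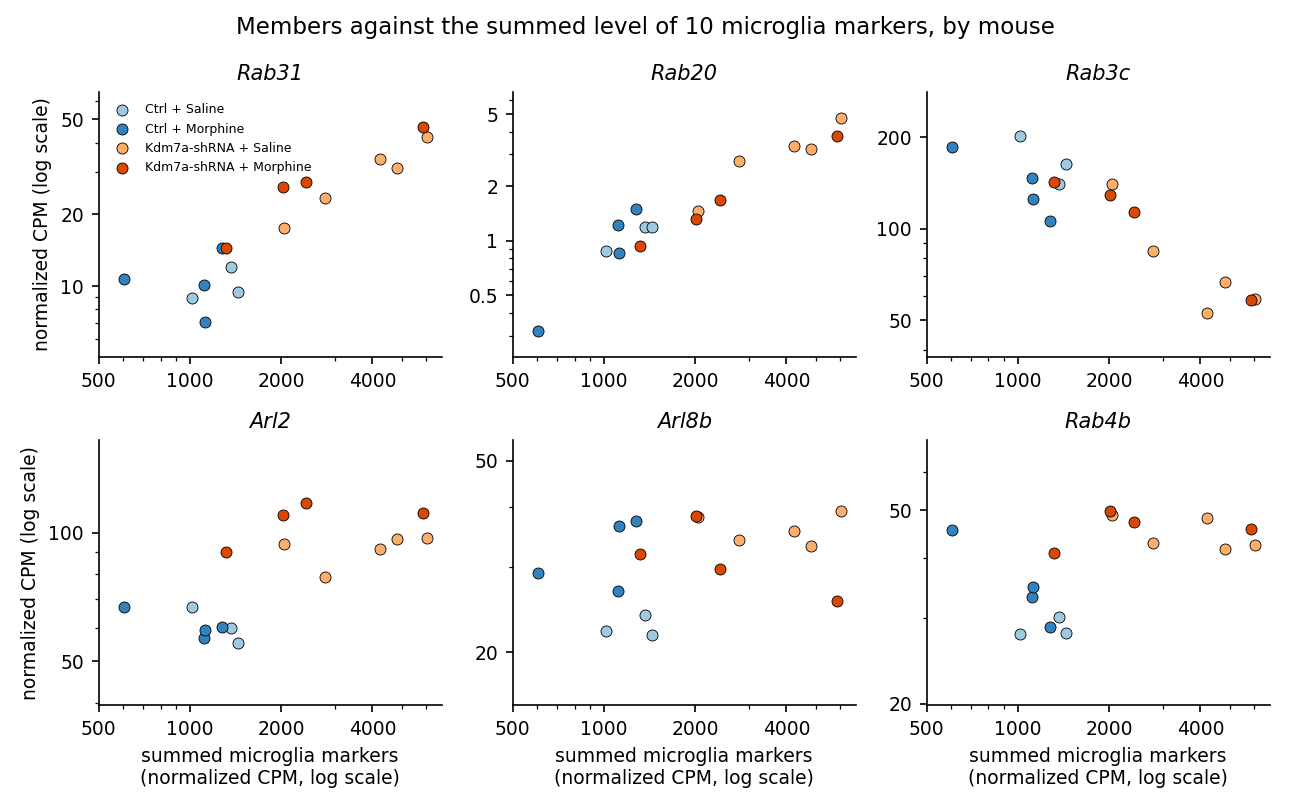
Normalized CPM of Rab31, Rab20, Rab3c, Arl2, Arl8b and Rab4b in each of the 16 mice against the summed normalized CPM of 10 microglia markers, both axes on log scales and colours marking the 4 groups. Among Kdm7a-shRNA mice Rab31 and Rab20 climb and Rab3c declines with the sum. Arl2, Arl8b and Rab4b have r between -0.16 and 0.12 with both treatments pooled.

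Arl2 had the smallest adjusted p of the family in both knockdown comparisons. It binds tubulin-folding cofactors, has a pool in mitochondria and releases prenylated cargo from its carrier proteins (ENSMUSG00000024944, chr19:6134374-6141548, minus strand). Arl2 was at 59.9, 67.1 and 55.2 CPM in Ctrl + Saline, 60.2, 67.1, 56.6 and 59.2 in Ctrl + Morphine, 78.8, 91.7, 97.04, 93.9 and 96.5 in Kdm7a-shRNA + Saline and 118, 109.8, 111 and 90.3 in Kdm7a-shRNA + Morphine. All 9 Kdm7a-shRNA mice were above all 7 Ctrl mice, with the lowest knockdown mouse at 78.8 CPM and the highest control mouse at 67.1 CPM. Arl2 rose by 0.82 on the log2 scale, or 1.76 times, under morphine (SE 0.111, adjusted p = 0.000922) and by 0.59, or 1.51 times, under saline (SE 0.116, adjusted p = 0.00274). The saline value stands at the fold threshold. It fell under 1.5 times in 6 of the alternatives and without any 1 of 5 mice (Kdm7a-shRNA + Saline replicates 3, 4 and 5 and Ctrl + Saline replicates 1 and 3), with adjusted p of at most 0.0302 in all of them. The closest relative in substrate, Arl3, which works with the same carrier proteins at the cilium, did not pass (0.09, adjusted p = 0.714, and -0.14, adjusted p = 0.469).

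Rab4b and Arl8b rose under saline. Rab4b acts in fast recycling from early endosomes to the cell surface. Rab4b was at 30.1, 27.8 and 27.95 CPM in Ctrl + Saline, 28.8, 45.6, 33.2 and 34.8 in Ctrl + Morphine, 42.9, 48.3, 42.5, 48.9 and 41.7 in Kdm7a-shRNA + Saline and 47.3, 49.8, 45.8 and 40.8 in Kdm7a-shRNA + Morphine. All Kdm7a-shRNA + Saline mice lay above the Ctrl + Saline mice (log2 fold change 0.65, SE 0.138, adjusted p = 0.00439), and under morphine the groups overlapped (log2 fold change 0.37, SE 0.130, adjusted p = 0.0821). Of the exon bases of Rab4b (ENSMUSG00000053291, chr7:27168424-27178896, minus strand), 65.0% are shared with the same-strand gene Gm21983, so its counts are uncertain. Arl8b links lysosomes to kinesin motors and carries them outward along microtubules, in axons along with synaptic vesicle precursors. Arl8b was at 23.9, 22.2 and 21.7 CPM in Ctrl + Saline, 37.4, 29.2, 26.8 and 36.6 in Ctrl + Morphine, 34.2, 35.7, 39.3, 38.2 and 33.2 in Kdm7a-shRNA + Saline and 29.7, 38.4, 25.5 and 31.9 in Kdm7a-shRNA + Morphine. The Ctrl + Saline mice were the lowest 3 of the 16, and the other 3 groups overlapped one another. Arl8b (ENSMUSG00000030105, chr6:108783099-108825278, plus strand) was higher with the knockdown under saline (log2 fold change 0.68, SE 0.148, adjusted p = 0.00499) and at -0.05 under morphine (adjusted p = 0.853). Scaled by library size alone, both fell under the fold threshold, Rab4b at 0.52 (adjusted p = 0.0135) and Arl8b at 0.54 (adjusted p = 0.0181), and Rab4b also with annotated genes alone (0.57, adjusted p = 0.0129).

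Outside the secretory group, 3 members fell. Arl5c, a relative of the trans-Golgi GTPases Arl5a and Arl5b, was lower in both comparisons (ENSMUSG00000038352, chr11:97989578-97996181, minus strand). Arl5c was at 64.9, 55.4 and 100.01 CPM in Ctrl + Saline, 55.4, 22.5, 62.6 and 65.8 in Ctrl + Morphine, 29.2, 28.7, 38.2, 21.7 and 30.2 in Kdm7a-shRNA + Saline and 15.9, 20.7, 24.1 and 22.7 in Kdm7a-shRNA + Morphine. The saline groups were apart, and under morphine only Ctrl + Morphine replicate 2 entered the range of the Kdm7a-shRNA mice. Arl5c fell by 1.30 under morphine (SE 0.272, adjusted p = 0.00887) and by 1.31 under saline (SE 0.268, adjusted p = 0.00341), and no alternative or left-out mouse ended either call. Arl5a (0.11 and -0.21) and Arl5b (0.26 and -0.61) did not pass.

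Rab5b is 1 of 3 Rab5 genes that govern fusion and signalling at the early endosome (ENSMUSG00000000711, chr10:128677175-128696264, minus strand). Rab5b was at 48.4, 60.5 and 62.7 CPM in Ctrl + Saline, 50.8, 54.2, 52.5 and 42.7 in Ctrl + Morphine, 34.4, 30.1, 30.7, 46.8 and 36.2 in Kdm7a-shRNA + Saline and 45.97, 48.1, 44.7 and 53.5 in Kdm7a-shRNA + Morphine. Under saline the 5 knockdown mice were the lower ones without exception, and the morphine groups overlapped. Rab5b fell by 0.68 under saline (SE 0.144, adjusted p = 0.00418), a call kept in every alternative and without each mouse, and was at log2 fold change -0.06, SE 0.141, adjusted p = 0.836 under morphine. Rab5a (0.26) and Rab5c (0.29) did not pass under saline. Rab9b, whose relative Rab9 carries cargo from late endosomes to the Golgi, was called under morphine (ENSMUSG00000043463, chrX:136858147-136868755, minus strand). Rab9b was at 2.91, 2.73 and 3.97 CPM in Ctrl + Saline, 3.79, 3.73, 3.04 and 4.92 in Ctrl + Morphine, 1.72, 1.96, 1.66, 3.04 and 3.32 in Kdm7a-shRNA + Saline and 1.99, 2.04, 1.80 and 2.42 in Kdm7a-shRNA + Morphine. All Kdm7a-shRNA + Morphine mice were below the Ctrl + Morphine mice (log2 fold change -0.92, SE 0.265, adjusted p = 0.0375). The call was lost without any of Kdm7a-shRNA + Morphine replicates 1, 2 and 3 and Ctrl + Morphine replicates 1 and 4 (adjusted p from 0.0698 to 0.128), without the filter on low counts, with annotated genes alone and with the compared groups alone (adjusted p from 0.0522 to 0.0551). It did not pass under saline (log2 fold change -0.44, SE 0.270, adjusted p = 0.267).

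The secretory and synaptic vesicle members had mostly lower values with the knockdown. Of 7 tested, none passed under morphine by edgeR or DESeq2, and 2 fell under saline, with list medians of -0.32 and -0.40. Under morphine 3 had an unadjusted edgeR p under 0.05, against 4805 of 18826 features. Rab3c, 1 of 4 Rab3 proteins that regulate vesicle release, is on chr13:110054187-110280996, minus strand (ENSMUSG00000021700). Rab3c was at 140.4, 201 and 163 CPM in Ctrl + Saline, 106, 185, 147 and 125 in Ctrl + Morphine, 84.4, 53.00, 58.8, 140.5 and 66.8 in Kdm7a-shRNA + Saline and 114, 129, 58.3 and 143 in Kdm7a-shRNA + Morphine. Of the Kdm7a-shRNA + Saline mice, 4 were far below the Ctrl + Saline mice, and replicate 4 touched their range. Rab3c fell by 1.06 under saline (SE 0.291, adjusted p = 0.0169), a call lost without Ctrl + Saline replicate 2 (-0.91, adjusted p = 0.0841) or 3 (-1.10, adjusted p = 0.0541), and was at -0.35 under morphine (adjusted p = 0.489), or -0.13 without Kdm7a-shRNA + Morphine replicate 3.

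Rab26 links synaptic vesicles to autophagy (ENSMUSG00000079657, chr17:24527241-24534210, minus strand, with 9.36% of its exon bases shared with the same-strand gene Traf7). Rab26 was at 211, 267 and 210.0 CPM in Ctrl + Saline, 164, 235, 203 and 251 in Ctrl + Morphine, 132, 93.7, 83.3, 198 and 112 in Kdm7a-shRNA + Saline and 150.3, 217, 139 and 176 in Kdm7a-shRNA + Morphine. The saline groups did not overlap and the fall was 0.89 (SE 0.223, adjusted p = 0.0107), with -0.76, adjusted p = 0.0595 without Ctrl + Saline replicate 2, where it was no longer called. Under morphine Rab26 was at log2 fold change -0.32, SE 0.220, adjusted p = 0.385. Rab3b was at 93.97, 95.8 and 91.4 CPM in Ctrl + Saline, 99.04, 86.3, 96.2 and 101 in Ctrl + Morphine, 59.6, 57.95, 44.4, 88.6 and 67.1 in Kdm7a-shRNA + Saline and 65.3, 74.1, 55.8 and 74.9 in Kdm7a-shRNA + Morphine. Rab3b thus separated the viruses under each treatment. Its difference was under the fold threshold, at log2 fold change -0.56, SE 0.161, adjusted p = 0.0214 under saline, and just over the p threshold at log2 fold change -0.50, SE 0.158, adjusted p = 0.0547 under morphine. It was called under saline with library size alone, at least 10 counts in every mouse, annotated genes alone and the replicate block, and without Kdm7a-shRNA + Saline replicate 4 or Ctrl + Saline replicate 1 (-0.59 to -0.71), and under morphine with library size alone (-0.61).

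Rab3a, the main Rab of synaptic vesicles, was at 1903, 1359.8 and 1213 CPM in Ctrl + Saline, 1986, 2401, 2087 and 2142 in Ctrl + Morphine, 1698, 1116, 1143, 1866 and 1269 in Kdm7a-shRNA + Saline and 1674, 1765, 1355 and 1868 in Kdm7a-shRNA + Morphine. Under morphine all Kdm7a-shRNA mice were below the Ctrl mice, but the difference did not pass (log2 fold change -0.37, SE 0.171, adjusted p = 0.181), nor did it under saline (log2 fold change -0.07, SE 0.176, adjusted p = 0.806). Rab3d (-0.31 and -0.13), Rab27a (1.12 and 0.38) and Rab27b (0.16 and -0.40) did not pass either. Rab27a, the exception with higher values in both comparisons, spread widely under morphine. It was at 3.36 to 12.6 CPM (median 4.26) in Kdm7a-shRNA + Morphine and 2.30 to 3.64 CPM in Ctrl + Morphine. Summed over 12 neuron markers, the Ctrl + Saline mice held 3838 to 4946 CPM, Ctrl + Morphine 3580 to 5230, Kdm7a-shRNA + Saline 2716 to 4499 and Kdm7a-shRNA + Morphine 2868 to 5166, with none of the 12 at 0 in any library. The median log2 fold change of these markers was -0.10 under morphine and -0.28 under saline, where 10 of the 12 were below 0 and 6 had an unadjusted p under 0.05. Over all features, 6536 of 18826 had such an edgeR p under saline. Kdm7a-shRNA + Saline replicate 4, the highest of its group for Rab3a, Rab3b, Rab3c, Rab26 and Rab27b, had the lowest microglia sum (2039 CPM) and the highest neuron sum (4499 CPM) of that group. The part of neuronal content in the lower values of the secretory members was not tested.

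**Figure D4:**
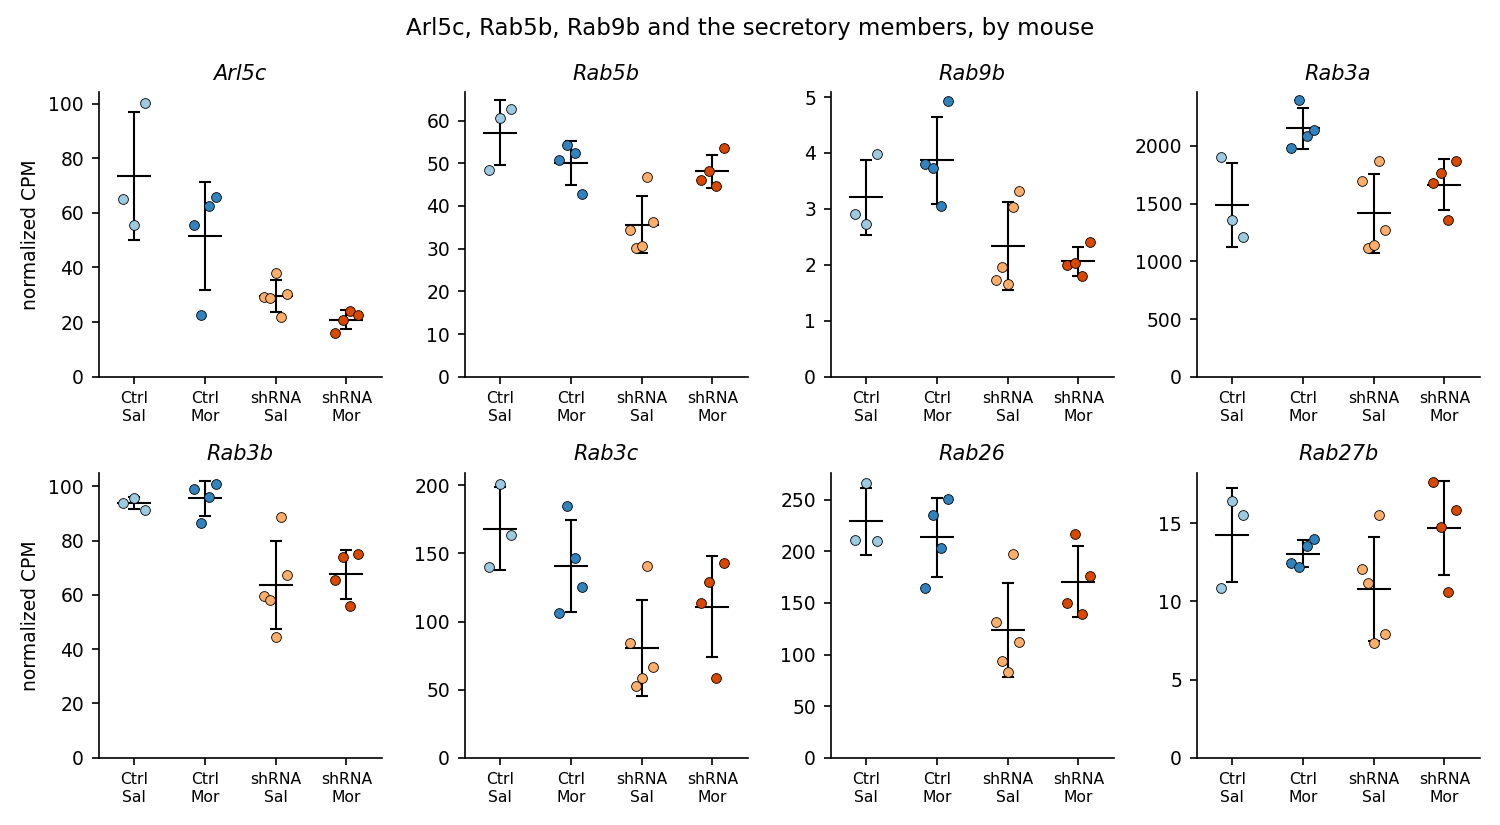
Normalized CPM of Arl5c, Rab5b, Rab9b, Rab3a, Rab3b, Rab3c, Rab26 and Rab27b by mouse in the 4 groups (Sal, saline; Mor, morphine; shRNA, Kdm7a-shRNA), each point 1 mouse, with the group mean as a line and the SD as bars. Rab3b lies at 86.3 CPM or more in every Ctrl mouse, and Kdm7a-shRNA + Saline replicate 4 is the highest of its group for Rab3a, Rab3b, Rab3c, Rab5b, Rab26 and Rab27b.

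By role, calls were found in the endosomal, lysosomal and secretory classes plus Arl2 and Arl5c. Over all features 7.69% were called under morphine and 16.7% under saline, and differences between roles were not tested. Of 13 tested members of early and recycling endosomes, 1 rose under morphine, and 3 rose and 1 fell under saline (medians 0.05 and 0.27). Of 16 members of late endosomes and lysosomes, 3 rose and 1 fell under morphine and 4 rose under saline (medians 0.03 and 0.17). Of 20 members of the endoplasmic reticulum and Golgi apparatus, Arl5c alone was called. Without it, their values ranged from -0.24 (Rab6a) to 0.30 (Arf4) under morphine and from -0.61 (Arl5b) to 0.50 (Rab30) under saline. No call was made by edgeR among 5 members between the trans-Golgi network and the plasma membrane (1 at an unadjusted p under 0.05 in each comparison, Rab8a and Rab8b), 5 of the cilium (none at an unadjusted p under 0.05) and 8 of other or less settled role (1 under morphine and none under saline).

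Among the 8 most-counted members, Rab26 was called (above) and the others stayed under the fold threshold. Arf1, which recruits coats at the Golgi, was at 0.11 under morphine and -0.03 under saline, Arf4 at 0.30 and -0.05, and the Golgi GTPase Arl1 at 0.03 and 0.13, with adjusted p from 0.191 to 0.885. Rab11b, of recycling endosomes, was at 0.34 and 0.31 (adjusted p = 0.111 and 0.12), and Rab14, between endosomes and Golgi, at 0.10 and 0.33 (adjusted p = 0.608 and 0.0563). Rab7, which directs fusion of late endosomes with lysosomes, was counted at 202, 181 and 197 CPM in Ctrl + Saline and 258, 232, 264, 254 and 257 in Kdm7a-shRNA + Saline. These groups did not overlap and the adjusted p passed, but the change of 0.39 (SE 0.107, adjusted p = 0.0171), or 1.31 times, was under the fold threshold. Under morphine Rab7 was at 0.21, adjusted p = 0.213. Rab5a, Rab8a, Rab10, Arl8a and Arf6, which act in endocytosis, surface delivery and lysosome movement, lay between -0.26 and 0.37 in both comparisons and did not pass.

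**Figure D5:**
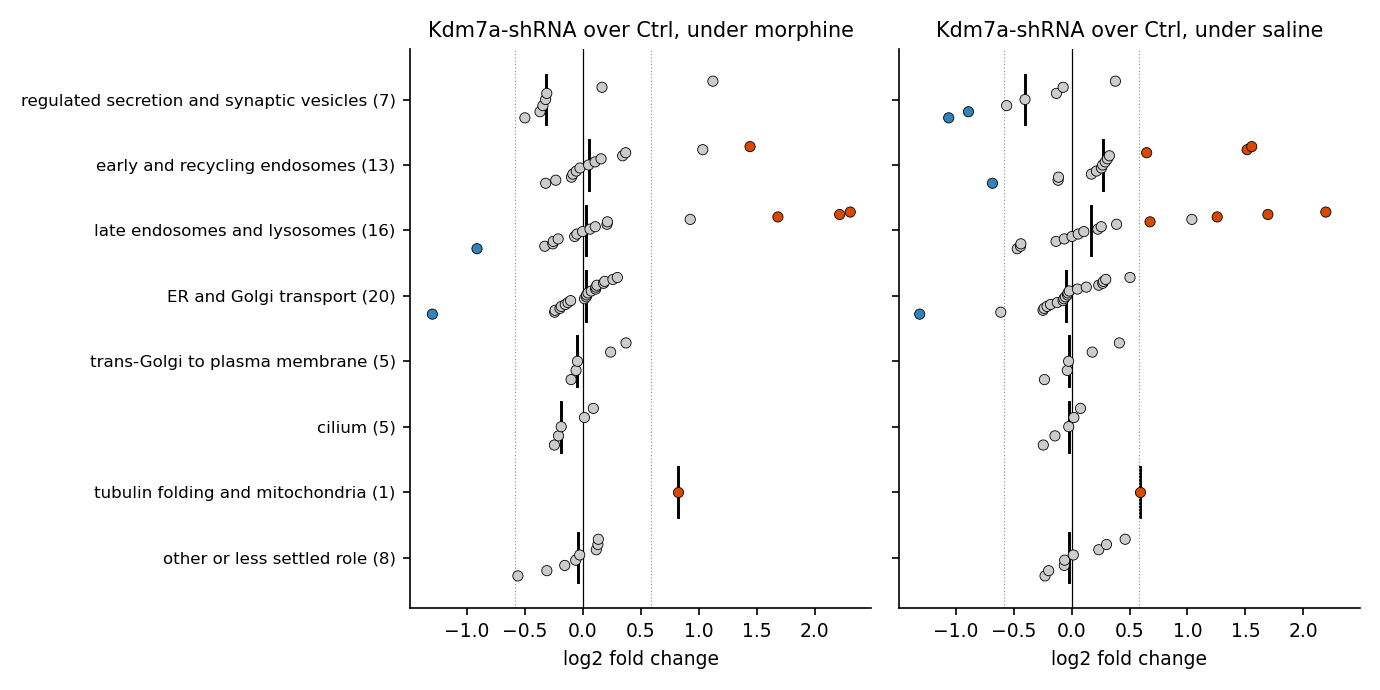
Log2 fold changes of Kdm7a-shRNA over Ctrl under morphine (left) and saline (right) for the 75 tested members by role, with the number per role in parentheses, orange for called higher, blue for called lower and grey for not called. Black bars are the medians of each role and dotted lines mark the fold change of 1.5; the orange points lie in the endosomal and lysosomal rows and at Arl2.

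Ratios between close relatives shifted with the knockdown in some pairs, but no pair passed after adjustment. For 27 pairs of paralogs the log2 ratio of the 2 genes was formed in each mouse (0.1 CPM added to both) and compared between viruses with an exact two-sided permutation test, 54 tests in all. The groups did not overlap for 4 pairs under morphine and 7 under saline. They reached p = 0.0286 and p = 0.0357, the smallest values that 4 against 4 and 3 against 5 mice allow in this exact permutation test, and the smallest adjusted p was 0.175. Over 54 tests such values pass only if most tests share them, so the adjusted p cannot decide here. Each pair named below holds a member called above, and its ratio repeats that member's values in part. The Rab4a to Rab4b ratio was lower in the knockdown groups by 0.72 under morphine and 0.37 under saline, with no overlap in either. The Rab7 to Rab7b ratio was lower by 1.68 and 1.72 and the Rab9 to Rab9b ratio higher by 1.08 and 0.70, again with no overlap. The Rab5b to Rab5c ratio was lower by 0.97 and the Arl8a to Arl8b ratio lower by 0.66 under saline, where neither pair overlapped. Rab4a itself was at -0.32 under morphine and 0.27 under saline.

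Morphine withdrawal by itself left no member called. Between Ctrl + Morphine and Ctrl + Saline, edgeR and DESeq2 called 0 of the 75 members, and over all features edgeR called 0% and DESeq2 1.01% (edgeR 1.18% without Ctrl + Saline replicate 1, with 0 members). Of the members, 10 had an unadjusted p under 0.05, against 11.7% of all features. The smallest adjusted p was that of Arl8b (log2 fold change 0.53, SE 0.153, adjusted p = 0.175). Rab3a had a value of the same size (log2 fold change 0.53, SE 0.186, adjusted p = 0.258). For both genes, all 4 Ctrl + Morphine mice were above all 3 Ctrl + Saline mice. These Ctrl + Saline mice also serve as controls of the knockdown under saline, and the Ctrl + Morphine mice as controls of the knockdown under morphine. Between Kdm7a-shRNA + Morphine and Kdm7a-shRNA + Saline, both tools called 0 members, 5 had an unadjusted p under 0.05, and the smallest adjusted p was 0.457 (Rab36). Over all features 0.00531% were called there and 7.02% had an unadjusted p under 0.05.

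The knockdown difference of a member was not shown to depend on the treatment. In the interaction test of edgeR, 0 of the 75 members passed (DESeq2 also 0), with 8 at an unadjusted p under 0.05; over all features 0.085% passed (1.21% by DESeq2 and 1.37% without Ctrl + Saline replicate 1) and 10.7% had an unadjusted p under 0.05. The nearest was Arl8b, whose knockdown difference was 0.73 smaller under morphine than under saline (SE 0.202, unadjusted p = 0.00203, adjusted p = 0.159). For Rab4a the log2 fold change under morphine was 0.59 below that under saline, and for Rab5b 0.62 above it (adjusted p = 0.222 and 0.24). The Rab5b values were -0.68 under saline and -0.06 under morphine. Members called in 1 treatment alone are therefore not shown to differ between treatments.

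The proteins that switch and use these GTPases were described from fixed lists, whose counts stand beside 7.69% of all features called under morphine and 16.7% under saline. At an unadjusted edgeR p under 0.05 stood 4805 and 6536 of the 18826 features. Of 81 exchange factors and GTPase activators of Rabs, edgeR called none under morphine (14 at an unadjusted p under 0.05), and 9 rose and 2 fell under saline (medians 0.02 and 0.05). Mon1a (1.15, adjusted p = 0.00701) and Ccz1 (1.37, adjusted p = 0.0108), which together form the exchange factor of Rab7, rose under saline and were at 0.18 and 0.03 under morphine, where they did not pass. Rabgap1, a GTPase activator, fell (-0.66, adjusted p = 0.00927), and Dennd2c rose from very few reads (4.45, adjusted p = 0.00773), with no reads in at least 1 library. Of 59 genes listed here as Rab effectors, 1 fell under morphine, and 3 rose and 1 fell under saline. The latter were Plekhm1, which tethers late endosomes and lysosomes through Rab7 (0.92, adjusted p = 0.0116), Rabep2 (0.99, adjusted p = 0.0154), Rab11fip5 (0.79, adjusted p = 0.0269) and Rims2, a Rab3 effector of the presynaptic active zone, which was lower (-0.69, adjusted p = 0.0432). The 1 under morphine was Doc2b (-1.68, adjusted p = 0.0469), with as little as 1 read in a library. It is counted by its place on the list, and whether it acts as a Rab effector was not examined. Lrrk2, the kinase that Rab29 and Rab32 bind, was at -0.58, adjusted p = 0.14 and -0.44, adjusted p = 0.215.

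Chml, a Rab escort protein that presents Rabs for lipid modification, fell in both comparisons (-0.99, adjusted p = 0.0266, and -0.998, adjusted p = 0.0167). Of 42 Arf exchange factors and GTPase activators, Rp2, the GTPase activator that switches Arl3 off, rose under morphine (0.81, adjusted p = 0.0305). Agap3, Adap2, Git1 and Arap3 rose under saline (0.63 to 1.32). Of 33 coat and tether genes edgeR called none under morphine (7 at an unadjusted p under 0.05) and Plekha3 under saline (1.03, adjusted p = 0.0339). Of 29 partners of Arl proteins, 1 fell under morphine, Bbs1 (-0.65, adjusted p = 0.0329), and 4 were called under saline. Pde6d, a prenyl-binding carrier that Arl2 and Arl3 unload, rose (1.36, adjusted p = 0.00843), as did Tbcc, a tubulin-folding cofactor (1.68, adjusted p = 0.0263), and Borcs6, a subunit of the complex that brings Arl8 to lysosomes (0.92, adjusted p = 0.00934). Bbs4, of the ciliary coat complex that Arl6 recruits, fell (-0.61, adjusted p = 0.0137).

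The Ras family of small GTPases gave a frame for these counts. Of 32 tested genes of it edgeR called none under morphine (4 at an unadjusted p under 0.05), and 5 rose and 2 fell under saline, among them Rheb, the activator of mTORC1 (0.72), Rap1b (0.68), Ralb (0.90) and Rhebl1 (-0.72). The medians of this list were -0.07 and 0.10. Whether the Ras family differs from the Rab, Arf and Arl genes in these shares was not tested.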

How the data were processed

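Nanopore cDNA libraries of 16 mPFC samples were read from 1 table of the whole series. The authors removed short and low-quality reads and ribosomal RNA, kept full-length reads, clustered them on mm10 with minimap2 and Pinfish, and deposited raw read counts per gene for annotated genes and for loci they assembled. The deposited CPM columns are the authors' counts per library total and were not tested. The submitters' processing notes name edgeR 3.8.6. Tests here used R 4.3.3 with edgeR 4.0.16 (glmQLFit and glmQLFTest) on the counts of all 16 samples in 1 fit with a coefficient per group, after filterByExpr and TMM scaling, with Benjamini-Hochberg adjustment over 18826 features. DESeq2 1.42.0 was an alternative. The script was tested on simulated counts. Depth was 6596991 to 12418112 reads. Samples of a group differed by more than sampling noise.

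Of the pairs of samples with the same replicate number, 6 of 21 had a correlation of deviations over 0.1, against 13 of 74 other pairs. In the knockdown comparisons not every pair was over 0.1, so no block was used. Between Ctrl + Morphine and Ctrl + Saline all 3 pairs were (0.110 to 0.207), and the blocked fit also called 0 members there. Gene positions and overlaps came from GENCODE vM21 (GRCm38), which may differ from the annotation used to count. The members and lists were chosen with earlier results of these data known. Named in the text were all called members, the 3 nearest to a call in each knockdown comparison, the 8 with most reads, a fixed set of well-studied members, and up to 4 called genes per list and knockdown comparison.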

Additional observations from a re-analysis of the deposited data

Results flagged for a closer look

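Rab14 was at 399.3 CPM in Kdm7a-shRNA + Morphine replicate 4, while the other 3 mice of that group lay between 301.9 and 310.4 CPM. The gap to the nearest mouse was 0.913 of the range of the group. Among the 87 groups of 4 or 5 mice examined for the named members this was the 1 case of a sample that far from the others, and chance flags about 1 in 20 groups.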

How the results depend on the processing

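Leaving out each mouse in turn gave 4 to 8 calls under morphine (7 with all mice) and 6 to 12 under saline (12 with all mice). The lowest counts came without Kdm7a-shRNA + Morphine replicate 3 and without Ctrl + Saline replicate 3. The calls over all features also fell there, from 7.69% to 3.03% and from 16.7% to 7.4%. The other alternatives (RLE size factors, library size alone, no filter on low counts, at least 10 counts in every mouse, annotated genes alone, DESeq2, the compared groups alone, adjusted p alone) gave 5 to 8 calls under morphine and 10 to 14 under saline. The morphine comparisons and the interaction gave 0 calls among the members in every alternative run, DESeq2 and left-out mice included; the interaction needs all 4 groups, so it was not run on the compared groups alone. With the replicate number as a block (replicate block), 7 members were called under morphine and 13 under saline. The labels do not say that the numbers pair the samples, and Kdm7a-shRNA + Saline replicate 5 has no partner and drops out of that fit. Of 922 values of single named members under the alternatives, 45 lost and 11 gained a call and 0 called values changed direction. Rab32, Rab20, Rab9b and Arl2 (at the fold threshold under saline) each lost a call without 5 or 6 of the mice, and Arl11, Rab7b, Rab26, Rab29 and Rab3c without 1 or 2 in a comparison.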
